A study of Mus musculus with 14 samples.

Results

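A set of 69 protein-coding genes, of 51789 genes in the count table and 21780 protein-coding ones, was near zero in tumours of C57BI/6 mice given vehicle and present in tumours of NGS mice given vehicle. They were chosen by level: a mean of at least 3 CPM (counts per 1 M counts of the library) in the 3 NGS vehicle libraries and of at most 0.1 CPM in the 4 C57BI/6 vehicle libraries, leaving out Krt5, Krt14 and the myosin, troponin and mast cell protease genes named by their symbols. Those 7 libraries fixed the choice, so every value in them is given as a description, and the only test was made between the 7 libraries from mice given the ACSS2 inhibitor. The tumours came from a study of inhibitors of ACSS2, an enzyme that makes acetyl-CoA from acetate, in triple negative breast cancer. There were 3 NGS vehicle, 3 NGS ACSS2i, 4 C57BI/6 vehicle and 4 C57BI/6 ACSS2i libraries, each of bulk tumour RNA read at the 3' end of polyadenylated transcripts. The strain behind the label NGS, the tumour line, the dose and the length of treatment are not given here, and no label assigns the Bmal1 status that the design line mentions. Nothing says whether replicates were separate animals, so p-values measure the spread between these samples, which may be technical.

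Library totals were 2.85 to 4.70 M counts in the NGS libraries and 17.6 to 20.3 M in the C57BI/6 libraries, so mouse strain and sequencing depth cannot be told apart. A group with no count allowed up to 0.226 CPM in NGS vehicle, 0.289 in NGS ACSS2i, 0.0403 in C57BI/6 vehicle and 0.0387 in C57BI/6 ACSS2i, from 3 counts over the group. Krt8, a keratin of simple epithelia, was at 187 to 252 CPM in the NGS and 286 to 380 CPM in the C57BI/6 libraries, whereas the epithelial marker Epcam lay between 0 and 4.04 CPM in all 14. In bulk tissue, fewer cells of a type and less RNA per cell cannot be told apart, and no gene can be assigned to tumour cells from these files.

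The surface of the skin is built by keratinocytes that leave the basal layer, change their keratins and then cross-link loricrin, filaggrin, small proline-rich and late cornified envelope proteins into a dead, water-tight layer. Many of those proteins are encoded side by side in the epidermal differentiation complex. The other genes of the set include plasma proteins made by hepatocytes, proteins of striated muscle, neuronal surface receptors, and Ifi202b, a DNA-binding protein of the interferon-inducible p200 family.

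By marker lists, 40 of the 69 genes were skin genes: 27 of the cornified envelope and barrier, 6 keratins, 4 of the sebaceous gland and 3 of the basal layer and desmosomes. Another 6 belonged to other tissues (4 to liver and 2 to muscle), 2 were on the epithelial list (Pof1b and Sox2), 1 was on the list of strain-variable genes (Ifi202b), and 20 were on no list. Across the libraries the 69 fell into 3 patterns. In 49, at least 80% of the summed NGS vehicle CPM came from replicate 1. A further 11 were at 1 CPM or more in each of the 6 NGS libraries, and 9 did neither. All 40 skin genes had the first pattern. With NGS vehicle replicate 1 left out, the same limits gave 23 genes, 17 of them among the 69 and 0 of them skin genes.

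**Figure D1:**
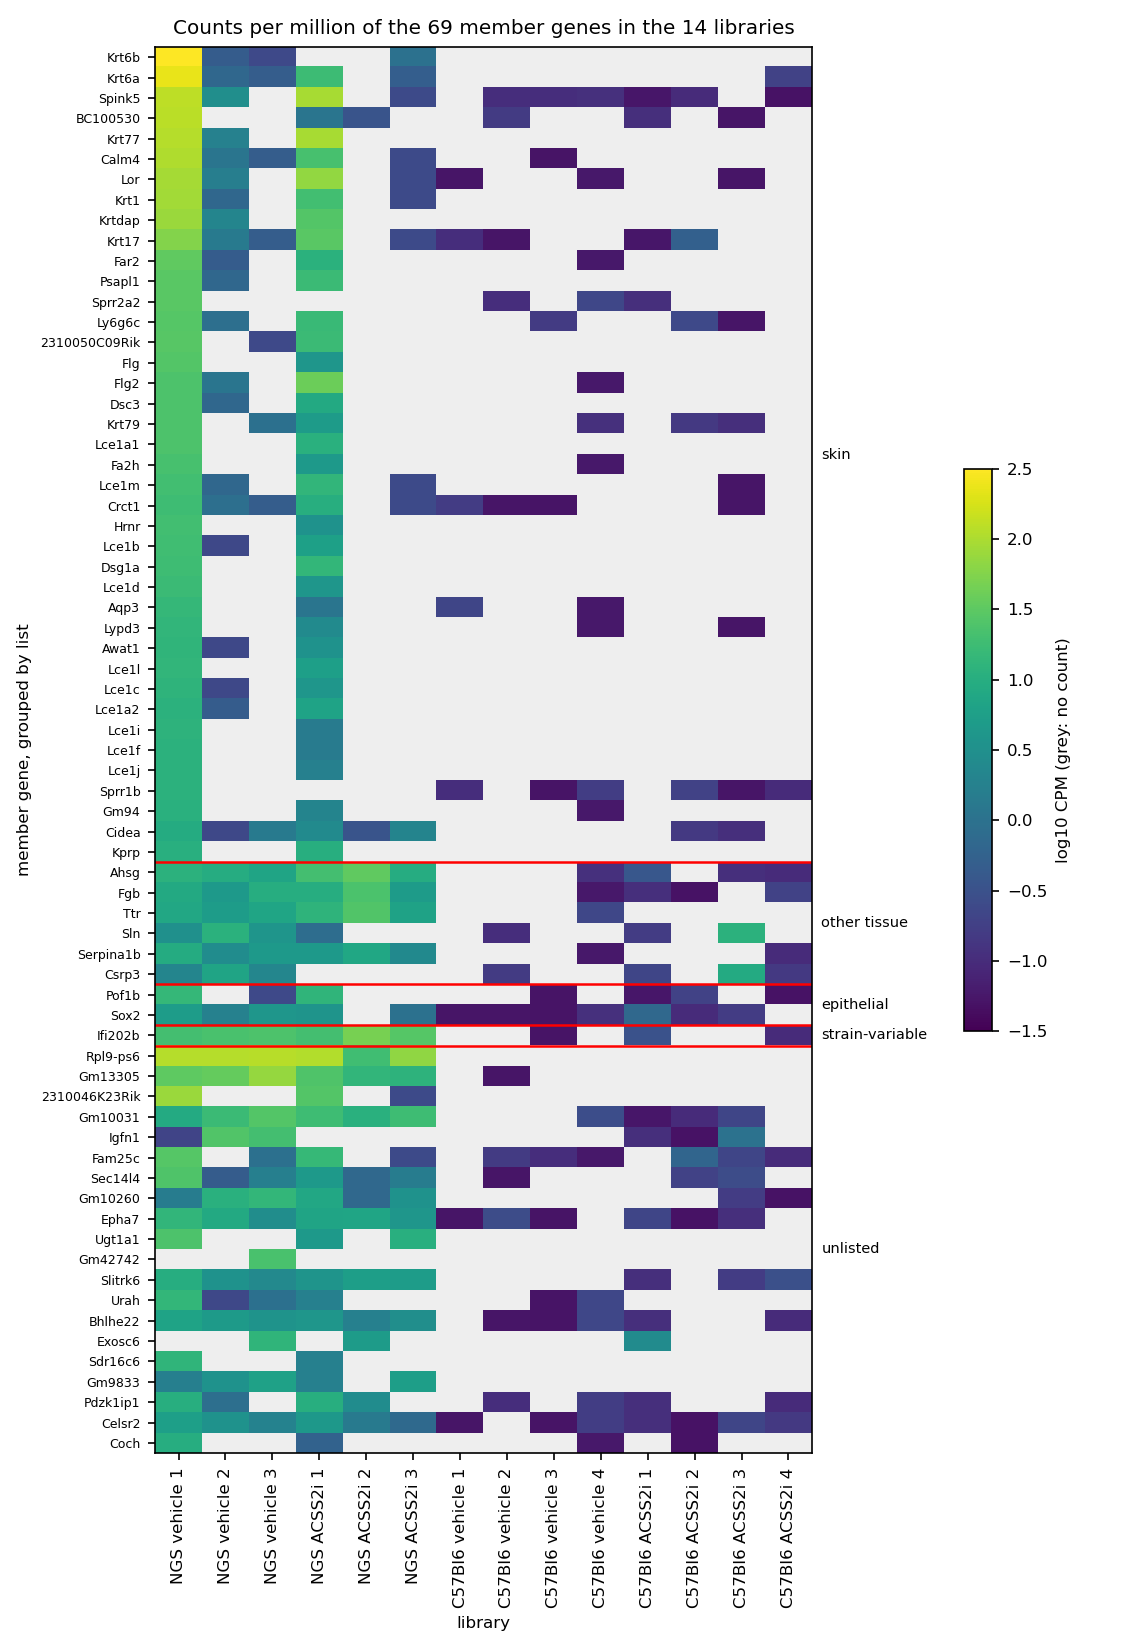
CPM of each of the 69 genes (rows, grouped by list) in each of the 14 libraries (columns), as log10 CPM by colour, with grey for no count. The 40 skin genes are bright in NGS vehicle 1 and, apart from Flg2, less bright or grey in NGS ACSS2i 1. In NGS vehicle 2, 21 of the 40 have a count, and the other libraries are mostly grey. Ifi202b and the 4 liver genes are coloured in all 6 NGS libraries.

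The 40 skin genes summed to 1893 CPM in NGS vehicle replicate 1, against 19.8 and 4.75 CPM in replicates 2 and 3. In the NGS ACSS2i libraries, which played no part in the choice, the sums were 604, 0.703 and 5.20 CPM for replicates 1, 2 and 3. In the 4 C57BI/6 vehicle libraries they lay between 0.417 and 1.02 CPM, and in the 4 C57BI/6 ACSS2i libraries between 0.326 and 1.38 CPM. A single library of each NGS group was therefore high, and NGS ACSS2i replicate 2 lay within the range of the C57BI/6 libraries. The median skin gene drew 99.2% of its summed NGS vehicle CPM from replicate 1, and the lowest, Cidea, drew 84.7%. Of the 40, 21 had a count in NGS vehicle replicate 2 and 8 in NGS vehicle replicate 3. In NGS ACSS2i, 37 had a count in replicate 1, 2 in replicate 2 and 10 in replicate 3. In the 8 C57BI/6 libraries, 21 of the 40 had no count at all.

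Among the keratins, Krt6b and Krt6a, a pair that epidermis makes in hair follicles and after wounding, stood at 318 and 230 CPM in NGS vehicle replicate 1. Krt6b was at 0.461 and 0.238 CPM in NGS vehicle replicates 2 and 3, at 0, 0 and 0.991 CPM in the NGS ACSS2i replicates, and had no count in the 8 C57BI/6 libraries. Krt6a was at 0.691 and 0.475 CPM in NGS vehicle replicates 2 and 3, at 17.8, 0 and 0.496 CPM in NGS ACSS2i, and at 0.197 CPM in 1 C57BI/6 library. Both were thus high in NGS vehicle replicate 1, and only Krt6a was above 1 CPM in NGS ACSS2i replicate 1. Krt1, a keratin of the suprabasal layers, read 87.4, 0.691 and 0 CPM in NGS vehicle and 19.2, 0 and 0.248 CPM in NGS ACSS2i. Krt77, another type II keratin, read 113, 1.84 and 0 CPM in NGS vehicle and 94.1, 0 and 0 CPM in NGS ACSS2i. Neither Krt1 nor Krt77 had a count in C57BI/6 tumours. Krt17, found in hair follicles, was at 57.6 CPM in NGS vehicle replicate 1 and 30.4 CPM in NGS ACSS2i replicate 1, and reached 0.541 CPM in C57BI/6 ACSS2i replicate 2. The 5 keratin genes other than Krt17 lie together on chromosome 15.

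The wider cornified envelope list, 176 genes of which 28 had no count in any library, summed to 2269, 472 and 479 CPM in NGS vehicle and 1192, 378 and 448 CPM in NGS ACSS2i, against 565 to 719 CPM in the 8 C57BI/6 libraries. Outside the replicate 1 libraries its sum was thus lower in NGS than in C57BI/6. The list also holds genes not confined to skin, such as S100a8 and S100a9, so its sum is no measure of cornified envelope alone. Between the ACSS2i libraries, at an edgeR adjusted p under 0.05, 10 of its 45 tested genes were higher in NGS and 11 higher in C57BI/6. The shares over all genes tested were 16.1% and 21.1%. The wider keratin list, 127 genes of which 67 had no count in any library, was also highest in the replicate 1 libraries. Its sum was 1508, 47.5 and 38.7 CPM in NGS vehicle replicates 1, 2 and 3, and 469, 32.7 and 31.2 CPM in NGS ACSS2i, against 28.6 to 37.6 CPM in the 8 C57BI/6 libraries. The wider basal layer and desmosome list, 104 genes of which 4 had no count in any library, was plentiful in both strains. That list summed to 3361, 2584 and 2426.5 CPM in NGS vehicle and 2871, 2171 and 2080 CPM in NGS ACSS2i. In C57BI/6 the same list lay between 1881 and 2132 CPM. Of its 50 tested genes, 12 were higher in NGS and 8 higher in C57BI/6. Krt14, the basal-layer keratin that the rule set aside, was not confined to replicate 1: it read 324, 43.8 and 27.1 CPM in NGS vehicle and 71.1, 11.9 and 6.44 CPM in NGS ACSS2i, against at most 0.432 CPM in C57BI/6. Its partner Krt5 read 177, 1.61 and 0.475 CPM, then 60.8, 0.351 and 0.248 CPM. The part that skin carried with the tumour plays in these values was not tested.

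Among the barrier genes, Lor, which encodes loricrin, the main protein of the cornified envelope, was at 90.4, 1.61 and 0 CPM in NGS vehicle, at 71.1, 0 and 0.248 CPM in NGS ACSS2i, and at no more than 0.0567 CPM in any C57BI/6 library. Spink5, an inhibitor of the proteases that shed dead keratinocytes, was at 127, 3.00 and 0 CPM and then at 94.3, 0 and 0.248 CPM, with at most 0.113 CPM in C57BI/6. Calm4, a calmodulin-like protein of epidermis, was at 104, 1.15 and 0.475 CPM and then at 21.5, 0 and 0.248 CPM. In each of the 3, replicate 1 was the high library of both NGS groups and the other NGS libraries were at 3.00 CPM or less. Krtdap, a small secreted keratinocyte protein, read 79.6, 2.07 and 0 CPM and then 27.0, 0 and 0 CPM, with no count in C57BI/6. Flg, which encodes filaggrin, read 26.8, 0 and 0 CPM and then 4.01, 0 and 0 CPM, also with no count in C57BI/6. The desmosomal cadherins Dsc3 and Dsg1a stood at 24.5 and 17.9 CPM in NGS vehicle replicate 1 and at 8.60 and 14.1 CPM in NGS ACSS2i replicate 1.

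The promoters of Lor, Flg and Krtdap are shown as examples: all 3 genes share the replicate 1 pattern and each window holds both motifs searched. Psapl1, Sprr1b and Fam25c also had that pattern and a match to each motif, and are not shown. They run from 250 bases before to 50 after the RefSeq start (GRCm38.p6), 5′ to 3′ on the gene's strand. Capitals mark TATAAA, the TATA box, and TGANTCA, the AP-1 motif, which reads the same on both strands. The windows are chr3:92083093-92083392 on the minus strand for Lor, chr3:93273296-93273595 on the plus strand for Flg and chr7:30787655-30787954 on the plus strand for Krtdap.
Lor: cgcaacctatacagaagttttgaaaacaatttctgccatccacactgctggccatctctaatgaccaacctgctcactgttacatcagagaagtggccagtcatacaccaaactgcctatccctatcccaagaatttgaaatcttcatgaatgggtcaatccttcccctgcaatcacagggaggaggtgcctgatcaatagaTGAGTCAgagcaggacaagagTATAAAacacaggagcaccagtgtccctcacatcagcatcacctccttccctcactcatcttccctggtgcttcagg
Flg: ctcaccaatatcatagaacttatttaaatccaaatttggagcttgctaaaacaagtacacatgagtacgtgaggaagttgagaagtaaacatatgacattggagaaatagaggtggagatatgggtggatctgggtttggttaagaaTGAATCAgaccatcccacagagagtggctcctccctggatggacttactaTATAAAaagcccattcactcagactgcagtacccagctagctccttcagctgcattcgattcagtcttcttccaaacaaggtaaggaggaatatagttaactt
Krtdap: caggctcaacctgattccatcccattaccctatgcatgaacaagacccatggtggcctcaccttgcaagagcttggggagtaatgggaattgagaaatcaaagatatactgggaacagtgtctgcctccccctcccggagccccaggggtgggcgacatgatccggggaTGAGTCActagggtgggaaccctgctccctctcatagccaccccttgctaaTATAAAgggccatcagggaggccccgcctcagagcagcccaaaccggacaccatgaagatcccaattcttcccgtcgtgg
TATAAA began 27 bases before the start in Lor, 53 in Flg and 30 in Krtdap.

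The RefSeq promoter table used here matched 45 of the 69 genes, with 48 windows in all. TATAAA, on either strand, stood in 13.6% of the 32851 mouse promoters and in 14 of those 48 (29.2%), and in 11 of the 26 skin windows (42.3%). TGANTCA stood in 7.81% of all promoters, in 10 of the 48 (20.8%) and in 6 of the 26 skin windows (23.1%). A match describes the letters of the window and shows neither binding nor use.

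Of the skin genes, 19 lie within 1.25 Mb of chromosome 3, the epidermal differentiation complex, where a 20th member, 2310046K23Rik, also lies. That span holds 53 protein-coding genes. Of the 33 that were not members, 31 had a mean under 3 CPM in NGS vehicle, 18 had a count in NGS vehicle replicate 1 and 13 had no count in any library. Sprr1a and Gm9774 had a mean of at least 3 CPM in NGS vehicle but exceeded the limit in C57BI/6. Ivl, which encodes involucrin, another envelope protein, was at 0.425 CPM in NGS vehicle replicate 1. The unnamed 2310046K23Rik read 79.98, 0 and 0 CPM in NGS vehicle and 27.0, 0 and 0.248 CPM in NGS ACSS2i, with no count in C57BI/6, and was highest in the same library of each NGS group as Lor. Its nearest neighbours Sprr4 and Ivl had no count and at most 0.425 CPM in any library.

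**Figure D2:**
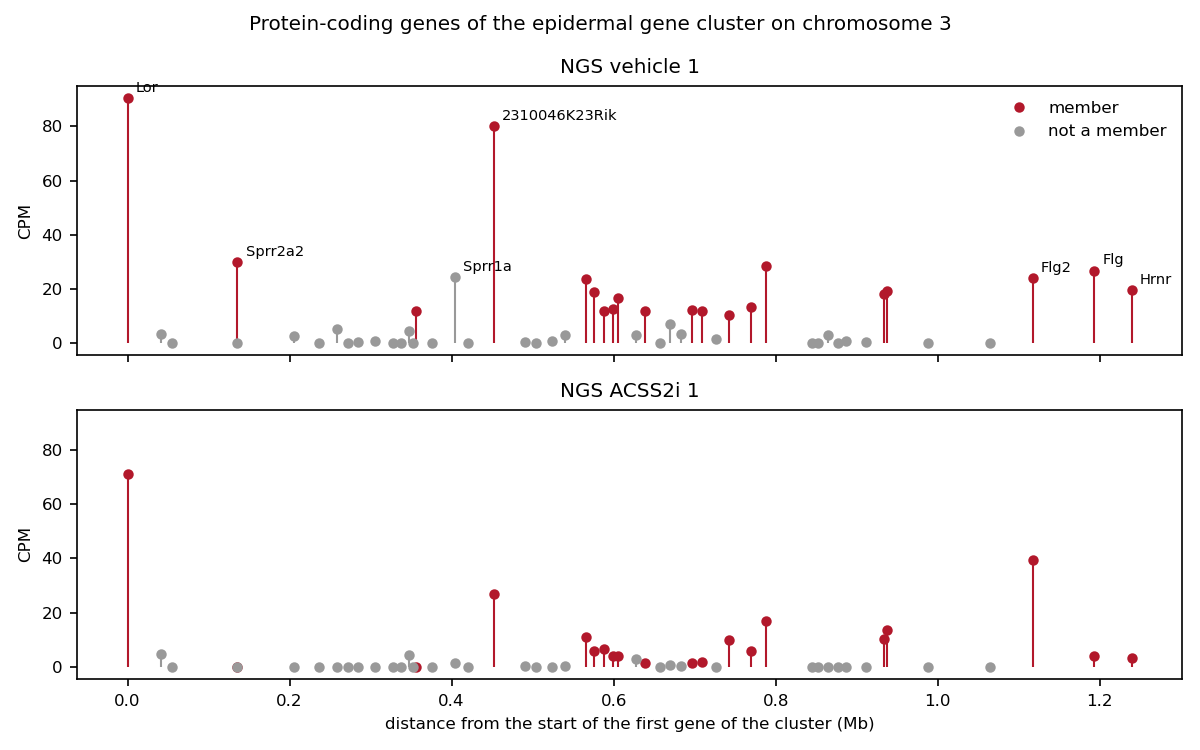
CPM of the 53 protein-coding genes of the epidermal differentiation complex on chromosome 3, by distance in Mb from the start of the first gene, in NGS vehicle replicate 1 (top) and NGS ACSS2i replicate 1 (bottom), with the 20 members in red. Lor reads 90.4 CPM above and 71.1 CPM below, Flg2 reads 24.0 and 39.3 CPM, and Sprr2a2 reads 29.99 and 0 CPM.

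Both replicate 1 libraries of the NGS groups held skin transcripts, in different proportions. Of the 40 skin genes, 39 were lower in NGS ACSS2i replicate 1 than in NGS vehicle replicate 1, with a median ratio of 0.298 and quartiles of 0.169 and 0.560. The members were chosen on the vehicle level, which by itself favours ratios below 1, and 1 library a group allows no test of the treatment. The intervals below are 95% intervals that cover counting error alone. For 14 genes the interval of the ratio lay above the median ratio, for 11 it lay below, and for the other 15 it held it.

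The lowest ratios were those of Krt6b, Sprr2a2 and Sprr1b, none of which had a count in NGS ACSS2i replicate 1. They had 318, 29.99 and 11.7 CPM in NGS vehicle replicate 1, and were lower by at least 370.1-fold, 34.9-fold and 13.6-fold, set against 3 counts in the ACSS2i library. BC100530, whose 3' end matches the stefin gene Stfa1, was at 121 and 1.15 CPM, a ratio of 0.00951 (0.00258 to 0.0245). Krt6a had a ratio of 0.0772 (0.0588 to 0.0997). At the other end Lor had a ratio of 0.787 (0.670 to 0.922), and Kprp, a keratinocyte proline-rich protein, one of 0.963 (0.606 to 1.52). Flg2, a relative of filaggrin, was the only one above 1, at 24.0 and 39.3 CPM and a ratio of 1.63 (1.26 to 2.12).

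**Figure D3:**
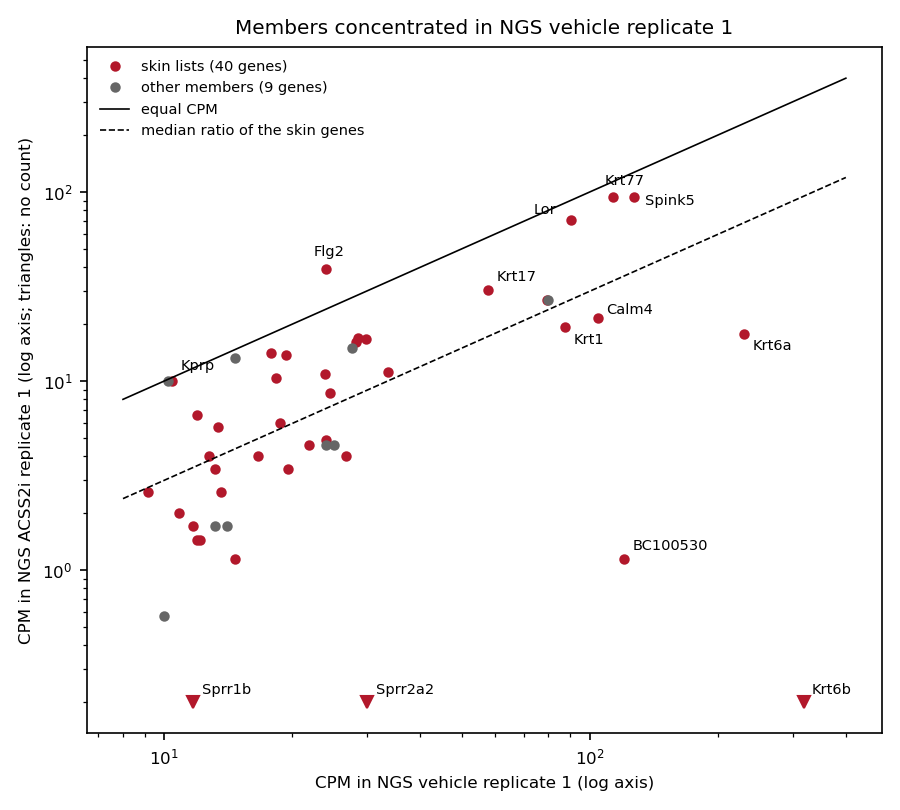
CPM in NGS ACSS2i replicate 1 against CPM in NGS vehicle replicate 1, both on log axes, for the 49 genes with at least 80% of their NGS vehicle CPM in replicate 1, with triangles for no count. Most of the 40 skin genes (red) lie below the line of equal CPM, around the dashed median ratio of 0.298, with Flg2 above the line and Krt6b, Sprr2a2, Sprr1b and BC100530 far below it.

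The sebaceous gland genes were Far2 and Awat1, which act in the synthesis of wax esters, Fa2h, which hydroxylates fatty acids, and Cidea, a lipid droplet protein also made by brown fat. Far2 was at 33.6, 0.461 and 0 CPM in NGS vehicle and 11.2, 0 and 0 CPM in NGS ACSS2i. Cidea was the most spread of the 4, at 9.15, 0.230 and 1.43 CPM and then 2.58, 0.351 and 1.98 CPM, and its NGS ACSS2i values did not overlap the C57BI/6 ACSS2i values, of which the highest was 0.147 CPM. The wider sebaceous gland and melanocyte list, 28 genes of which 3 had no count, summed to 353, 191 and 206 CPM in NGS vehicle. In NGS ACSS2i that list was at 250, 303 and 189 CPM, highest in replicate 2, against 120 to 187 CPM in C57BI/6. Of its 7 tested genes, 2 were higher in NGS and 0 higher in C57BI/6. The adipocyte list, 38 genes of which 0 lacked a count, summed to 904, 866 and 3206 CPM in NGS vehicle replicates 1, 2 and 3, so it was not highest where the skin genes were. It was at 1025 to 2344 CPM in NGS ACSS2i and 453 to 953 CPM in C57BI/6 ACSS2i. Of its 32 tested genes, 15 were higher in NGS and 1 higher in C57BI/6, beside 16.1% and 21.1% of all genes tested. The part of adipocytes in the Cidea values was not tested.

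Another 9 genes outside the skin lists were also concentrated in NGS vehicle replicate 1. They were Pof1b, an actin-binding protein of epithelia, 2310046K23Rik, Fam25c, Sec14l4, Ugt1a1, Urah, Sdr16c6, Pdzk1ip1 and Coch. Pof1b read 14.7, 0 and 0.238 CPM in NGS vehicle and 13.2, 0 and 0 CPM in NGS ACSS2i, so it was high in the same libraries as the skin genes. Fam25c did the same, with 27.7, 0 and 0.951 CPM and then 14.9, 0 and 0.248 CPM. Ugt1a1, of the locus that conjugates bilirubin, did not: it was at 24.0, 0 and 0 CPM in NGS vehicle but at 4.59, 0 and 10.4 CPM in NGS ACSS2i, highest in replicate 3. Its 3' end is shared with 8 other genes of the locus, so its counts could be split among them.

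In the NGS ACSS2i libraries, 45 of the 49 genes of the replicate 1 pattern were highest in replicate 1, 2 in replicate 3, and 2 had no count. The labels do not say that a replicate number marks a shared animal or day, and what the 2 libraries numbered 1 share beyond their number is not given here.

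The 11 genes at 1 CPM or more in every NGS library were Ahsg, Fgb, Ttr, Serpina1b, Ifi202b, Epha7, Slitrk6, Bhlhe22, Rpl9-ps6, Gm13305 and Gm10031. Their sum was 239, 226 and 280 CPM in NGS vehicle and 233, 195 and 162 CPM in NGS ACSS2i, against 0.0535 to 1.30 CPM in the 8 C57BI/6 libraries. By a stricter measure, in which the lowest of the 6 NGS libraries held at least 0.25 of the highest, 4 of the 69 were even: Ifi202b, Gm10031, Serpina1b and Bhlhe22. The rule and the limit of 1 CPM keep the NGS values of these 11 genes above their C57BI/6 vehicle values. Neither fixes the C57BI/6 ACSS2i values, but the limit sets a floor on the NGS side there too. The separation of the 11 genes across libraries is therefore a description.

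**Figure D4:**
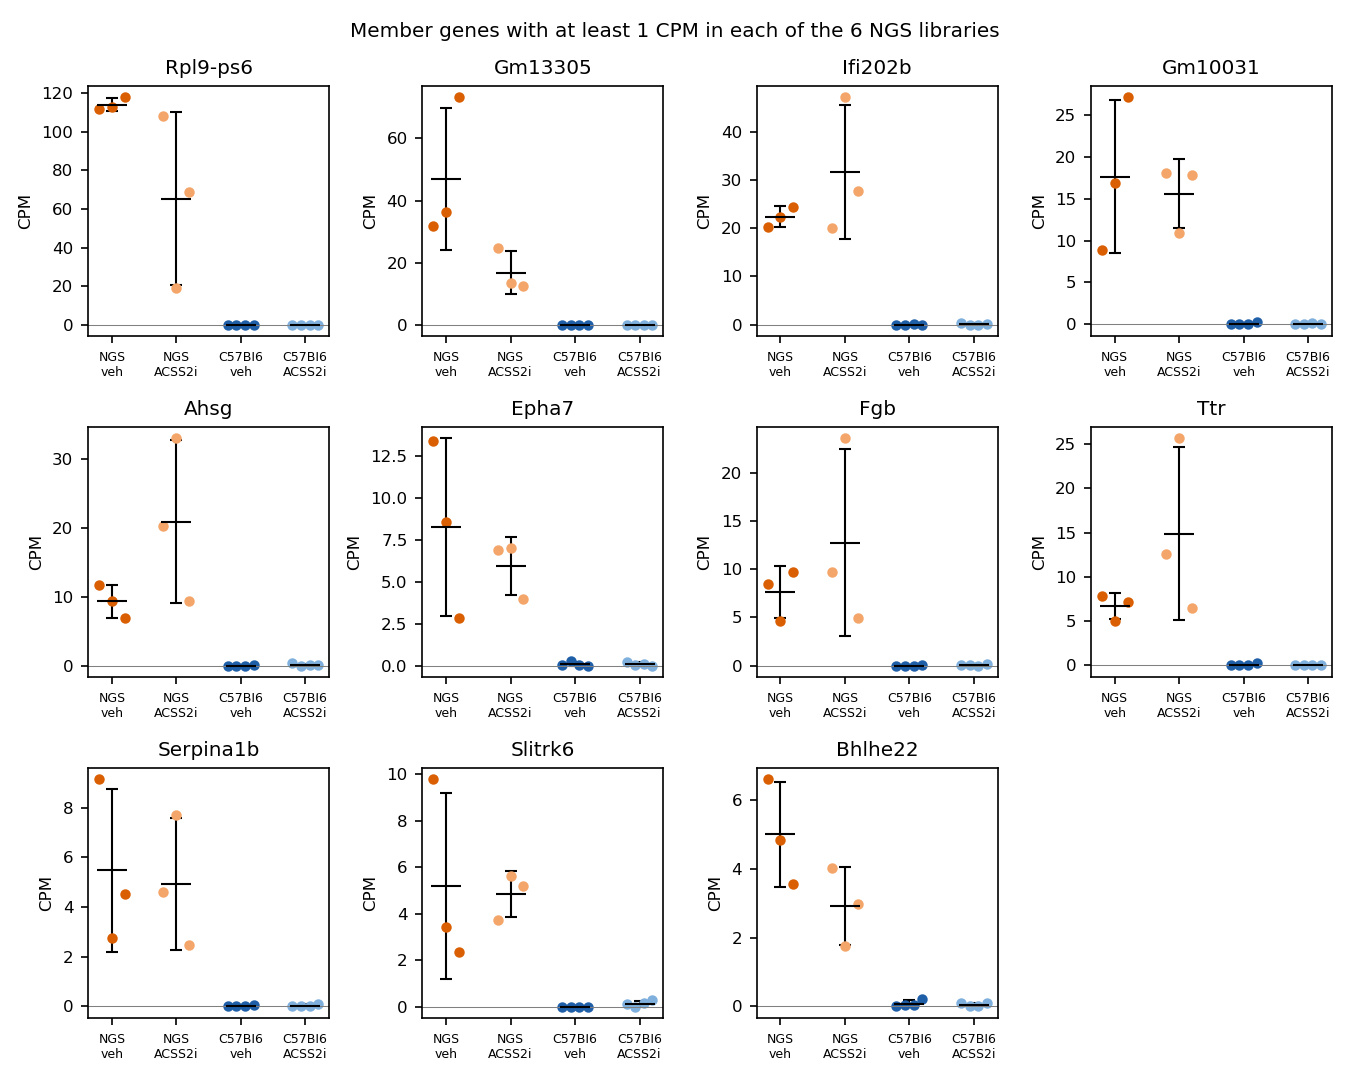
CPM per library of the 11 genes at 1 CPM or more in each of the 6 NGS libraries, with 1 point a library, a bar at the group mean and whiskers of 1 SD (n = 3 for each NGS group, n = 4 for each C57BI/6 group). Every NGS point lies above every C57BI/6 point, which the choice of these genes favours, and the C57BI/6 points lie between 0 and 0.381 CPM.

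The comparison between strains was made in the ACSS2i libraries, which the choice of the 69 genes had not used. It took edgeR's quasi-likelihood test over 16141 genes, with Benjamini-Hochberg adjusted p-values. At an adjusted p under 0.05, 16.1% of all genes tested were higher in NGS and 21.1% were higher in C57BI/6. Of the 69 genes, 15 passed the filter on low counts and 14 of these were higher in NGS. A gene that is near zero in C57BI/6 passes mainly through its NGS counts, so this count says little about the set, and 54 genes, with all 40 skin genes, were not tested. Of the 14, 11 are the genes at 1 CPM or more in every NGS library. That limit used the NGS ACSS2i libraries tested here, so the limit and the filter both favour small p-values for these 11. The lowest NGS ACSS2i library lay above the highest C57BI/6 ACSS2i library for 14 of the 15 tested genes of the set, beside 24.3% of all genes tested. The filter bears on this count in the same way. With Cidea, which was not tested, it did so for 15 of the 69. Fold changes are log2, NGS minus C57BI/6, each with its standard error from the fit, and the median over all genes tested was -0.06.

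Among the 14, 4 were plasma proteins of hepatocytes. Ahsg, which encodes fetuin-A, read 11.7, 9.45 and 6.89 CPM in NGS vehicle and 20.4, 33.0 and 9.42 CPM in NGS ACSS2i. In C57BI/6 ACSS2i it read 0.381, 0, 0.108 and 0.0985 CPM, and in C57BI/6 vehicle it was found in 1 library, at 0.113 CPM. The fold change in ACSS2i libraries was 6.98 ± 0.68 (adjusted p = 8.92e-05). Fgb, the beta chain of fibrinogen, read 8.51, 4.61 and 9.74 CPM and then 9.75, 23.5 and 4.96 CPM, against at most 0.197 CPM in C57BI/6, with a fold change of 6.87 ± 0.75 (adjusted p = 0.000182). Ttr, which carries thyroxine and retinol-binding protein, read 7.87, 5.07 and 7.13 CPM and then 12.6, 25.6 and 6.44 CPM. It had no count in C57BI/6 ACSS2i, and pooled counts were at least 357-fold higher in NGS, against 3 counts over the C57BI/6 group (adjusted p = 0.000452). Serpina1b, an alpha-1 antitrypsin, read 9.15, 2.76 and 4.52 CPM and then 4.59, 7.73 and 2.48 CPM. It had 2 counts in C57BI/6 ACSS2i, a ratio of 179.5 with a 95% counting interval of 47.1 to 1525 (adjusted p = 0.000323). Its 3' end is shared, at 95% of its bases or more, with 2 other genes, of which Serpina1a is the closest. The split of counts among these genes is therefore uncertain.

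In the 3 NGS ACSS2i libraries the 4 genes had the same order, highest in replicate 2 and lowest in replicate 3. In NGS vehicle only Ttr and Serpina1b shared an order. Their sum was 37.2, 21.9 and 28.3 CPM in NGS vehicle and 47.3, 89.9 and 23.3 CPM in NGS ACSS2i, and replicate 2 of NGS ACSS2i was the highest for 3 of the 4 and for Serpina1b second to NGS vehicle replicate 1. Of the NGS libraries, this was the one in which the skin genes summed lowest. Alb, which encodes albumin, missed the limit of the rule in C57BI/6 vehicle, and was at 29.4, 14.98 and 28.5 CPM in NGS vehicle and 34.1, 55.2 and 17.6 CPM in NGS ACSS2i, against 0 to 0.623 CPM in C57BI/6. Hp, an acute-phase plasma protein that other tissues also make, differed by 1.22 ± 0.38 (adjusted p = 0.0315), with 26.7 CPM or more in 7 of the 8 C57BI/6 libraries. The wider list of gut, salivary gland, liver and other organs, 91 genes of which 27 had no count, had 17 of 23 tested genes higher in NGS, the 4 members among them, and 0 higher in C57BI/6, beside 16.1% and 21.1% of all genes tested; several passed the filter through NGS counts alone. Its sum was 206 to 530 CPM in the NGS and 122 to 190 CPM in the C57BI/6 libraries. Whether liver cells, carry-over or tumour cells gave these counts was not tested.

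Ifi202b, which binds DNA in the cytosol and in mice holds back the AIM2 inflammasome, read 20.2, 22.3 and 24.5 CPM in NGS vehicle and 20.1, 47.1 and 27.8 CPM in NGS ACSS2i. In C57BI/6 it was at 0, 0, 0.0521 and 0 CPM in vehicle and at 0.326, 0, 0 and 0.0985 CPM with ACSS2i. The fold change in ACSS2i libraries was 8.01 ± 0.62 (adjusted p = 2.19e-05). As background, the C57BL/6J substrain is known to make little of this transcript because of a deletion at the 5' end of the gene; the labels here name no substrain. Its relatives named here were present in both strains. Mndal was at 249 ± 49.8 CPM (SD, n = 3) in NGS and 236 ± 39.1 CPM (n = 4) in C57BI/6 ACSS2i libraries, and the edgeR fold change was -0.03 ± 0.16 (adjusted p = 0.892). Ifi203 was lower in NGS, by -1.10 ± 0.16 (adjusted p = 0.000821), and so were Ifi204, Ifi205 and Ifi211, by -0.71, -0.64 and -0.73. Of 67 tested genes on the list of strain-variable or sex-linked genes, Ifi202b was the only one higher in NGS, and 33 were higher in C57BI/6. The shares over all genes tested were 16.1% and 21.1%. Many genes of that list are histocompatibility, natural killer receptor or interferon-inducible genes, so the count is no measure of strain differences alone. No other gene matched more than 14.7% of the last 300 transcript bases of Ifi202b.

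Of the 11 genes, 3 are best known from the nervous system. Epha7, a receptor for ephrin-A ligands, read 13.4, 8.52 and 2.85 CPM in NGS vehicle and 6.88, 7.03 and 3.97 CPM in NGS ACSS2i, against at most 0.265 CPM in C57BI/6, with a fold change of 5.76 ± 0.68 (adjusted p = 0.000277). Slitrk6, a membrane protein of neurons and the inner ear, read 9.78, 3.46 and 2.38 CPM and then 3.73, 5.62 and 5.20 CPM. It had no count in C57BI/6 vehicle and at most 0.296 CPM with ACSS2i, and its fold change was 4.89 ± 0.67 (adjusted p = 0.00068). Bhlhe22, a helix-loop-helix transcription factor, read 6.59, 4.84 and 3.57 CPM and then 4.01, 1.76 and 2.97 CPM, against at most 0.227 CPM, with a fold change of 5.47 ± 0.77 (adjusted p = 0.0008). The nerve and Schwann cell list, 63 genes of which 2 had no count, summed to 263 to 313 CPM in NGS and 105 to 148 CPM in C57BI/6. Of its 27 tested genes, 8 were higher in NGS and 2 higher in C57BI/6, beside 16.1% and 21.1% of all genes tested. The part of nerve tissue in the 3 genes was not tested.

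The last 3 of the 11 closely resemble other genes, and where their reads belong is uncertain. Rpl9-ps6, named as a pseudogene of the ribosomal protein gene Rpl9 and annotated as protein-coding, matches Rpl9 over 93.7% of its last 300 bases. It read 111, 112 and 118 CPM in NGS vehicle and 108, 18.97 and 68.6 CPM in NGS ACSS2i, and had no count in the 8 C57BI/6 libraries, so that pooled ACSS2i counts were at least 1765-fold higher in NGS (adjusted p = 0.000403). Rpl9 itself did not separate the strains: 448 ± 38.2 CPM (n = 3) in NGS and 415 ± 34.6 CPM (n = 4) in C57BI/6 ACSS2i libraries (edgeR adjusted p = 0.998). Gm13305 is identical at its 3' end to Il11ra2, which had no count in any library. Gm13305 read 31.7, 36.2 and 73.2 CPM and then 24.7, 13.4 and 12.4 CPM, with 0.0530 CPM in 1 C57BI/6 library. Pooled ACSS2i counts were at least 434-fold higher in NGS (adjusted p = 8.92e-05), while Il11ra1, the interleukin-11 receptor gene, was lower in NGS by -0.92 ± 0.14 (adjusted p = 0.00126). Gm10031, identical at its 3' end to Csnk2a1, a kinase subunit, read 8.93, 16.8 and 27.1 CPM and then 18.1, 10.9 and 17.8 CPM, against at most 0.283 CPM. Its fold change was 7.17 ± 0.53 (adjusted p = 1.66e-05).

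The other 9 genes followed neither pattern. Sln and Csrp3, a regulator of the muscle calcium pump and a muscle LIM protein, were the 2 muscle genes. Sln read 3.19, 11.3 and 3.80 CPM in NGS vehicle, 0.860, 0 and 0 CPM in NGS ACSS2i, and 0.163, 0, 11.9 and 0 CPM in C57BI/6 ACSS2i. Csrp3 read 2.13, 6.91 and 2.14 CPM in NGS vehicle, no count in NGS ACSS2i, and 0.217, 0, 8.75 and 0.148 CPM in C57BI/6 ACSS2i. For both the highest C57BI/6 library was above every NGS library. The muscle list, 126 genes of which 1 had no count, summed to 1464, 11395 and 5901 CPM in NGS vehicle and to 1892, 415 and 405 CPM in NGS ACSS2i. In C57BI/6 ACSS2i the list was at 5060 CPM in replicate 3 and at 605 to 987 CPM in the others, and in each strain both genes were highest in the library with the highest muscle sum. The order of the other libraries differed: C57BI/6 vehicle replicate 1, at 1845 CPM for the list, had no count of either gene, while replicate 2, at 693 CPM, had both. Igfn1, a protein of muscle Z-discs on no list, read 0.213, 25.6 and 19.97 CPM in NGS vehicle, had no count in NGS ACSS2i, and reached 1.03 CPM in C57BI/6 ACSS2i replicate 3. The part that muscle in the sample plays was not tested.

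Sox2, a transcription factor of stem cells and neural progenitors, read 5.11, 1.84 and 4.04 CPM in NGS vehicle and 3.73, 0 and 0.991 CPM in NGS ACSS2i. In C57BI/6 ACSS2i it read 0.707, 0.0983, 0.162 and 0 CPM, so the groups overlapped, and it did not pass the test (2.60 ± 1.18, adjusted p = 0.113). Without NGS ACSS2i replicate 1 its fold change was 1.07. Celsr2, an atypical cadherin, read 5.74, 3.46 and 1.90 CPM and then 4.30, 1.41 and 0.743 CPM, against at most 0.216 CPM in C57BI/6, with a fold change of 3.84 ± 0.74 (adjusted p = 0.00396). Gm10260, which matches Rps18 over 93.7% of its 3' end, read 1.49, 10.8 and 14.3 CPM and then 8.03, 0.703 and 3.47 CPM, and its fold change was 5.95 ± 0.99 (adjusted p = 0.00182). The 14th called gene was Sec14l4, a lipid-binding protein of the replicate 1 pattern, at 25.1, 0.461 and 1.66 CPM and then 4.59, 0.703 and 1.49 CPM, with 4.07 ± 1.00 (adjusted p = 0.0119).

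Single libraries moved several of these values by over 1.5 times. Without NGS ACSS2i replicate 1, the log2 fold change was 5.05 for Gm10260, 2.81 for Celsr2 and 3.07 for Sec14l4, which lost its call. Without NGS ACSS2i replicate 2 that of Fgb was 6.10. Leaving out C57BI/6 ACSS2i replicate 1 gave 9.38 for Ifi202b, 7.96 for Ahsg and 6.50 for Epha7, and leaving out replicate 3 gave 7.91 for Gm10031. Leaving out replicate 4 gave 7.54 for Fgb and 5.52 for Slitrk6. Both counts of Serpina1b in C57BI/6 ACSS2i lay in replicate 4, so its ratio rests on that library, and without it the fitted value of 6.99 became 8.70, which is no bound as the group then has no count. Only Sec14l4 lost its call in any of these; for Gm10260, Celsr2, Sec14l4 and Sox2 no value was had without any one C57BI/6 library, since they then missed the filter.

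Exosc6, a subunit of the RNA exosome, and Gm42742 each share all of the last 300 bases with another gene, Aars and Pagr1a. Exosc6 was found in NGS vehicle replicate 3 (13.3 CPM), NGS ACSS2i replicate 2 (4.92 CPM) and C57BI/6 ACSS2i replicate 1 (2.72 CPM), and in no other library. Gm42742 was found in NGS vehicle replicate 3 alone, at 22.3 CPM. Gm9833 read 1.70, 3.46 and 6.18 CPM in NGS vehicle and 1.72, 0 and 5.45 CPM in NGS ACSS2i, with no count in C57BI/6. In all, 8 of the 69 share at least 95% of the last 300 bases with another gene, among them Sprr2a2 and BC100530 of the skin genes.

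In the C57BI/6 ACSS2i libraries, whose level the rule did not fix, 36 of the 69 had no count, 8 had 1 to 3 counts and 25 had more. In C57BI/6 vehicle 34 had no count, and 27 had none in all 8 libraries. The mean passed 0.1 CPM with ACSS2i for 12 genes and 0.5 CPM for 3, which were Sln (3.02 CPM), Csrp3 (2.28 CPM) and Exosc6 (0.680 CPM), each through a single library. Since the vehicle values chose the genes, no test of the treatment was made.

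Just inside the NGS limit were Cidea at 3.60, Kprp at 3.47 and Coch at 3.33 mean CPM, and just outside were Myoz2 at 2.88, Fam83b at 2.82 and Defb6 at 2.78. Just inside the C57BI/6 limit were Epha7 at 0.0926, Sprr2a2 at 0.0832 and Bhlhe22 at 0.0829 mean CPM, and among those just outside were Actn2 at 0.107 and Nat8l at 0.109.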

How the data were processed

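Bulk tumour RNA was prepared with Trizol and an RNeasy Plus kit and sequenced from QuantSeq 3' mRNA libraries, per the labels' protocols. The authors deposited whole-number counts per gene for 14 libraries; build mm10 and the tools DESeq2 and RSEM 1.2.3 are named in the submitters' processing notes without their roles, and the aligner is not given in the sources used here. Symbols and types came from GENCODE M21, which matched 51596 genes and left 193 without a symbol. The gene set and marker lists were chosen with earlier results of these data known. CPM is the count over the library total.

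The 3 NGS and 4 C57BI/6 ACSS2i libraries were compared with edgeR 4.0.16 (filterByExpr, TMM, quasi-likelihood test, two-sided, Benjamini-Hochberg over all genes tested, threshold 0.05, common biological coefficient of variation 0.23), tested on simulated data. DESeq2 1.42.0 and limma 3.58.1 were alternatives. Libraries of a group differed beyond counting error, and intervals and floors, with no molecular identifiers described, cover counting error only. Near copies were found with blastn 2.17.0 over the last 300 transcript bases, and promoters came from RefSeq.

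Genes were named by rule: per list class the 8 highest in NGS vehicle and the 5 smallest p in the ACSS2i fit, the genes at each limit, those over 0.5 CPM in C57BI/6 ACSS2i, and the 5 most and 5 least spread in NGS. Krtdap, Flg, Flg2, Kprp, Sprr1b, Far2, Awat1, Fa2h, Dsc3, Dsg1a, Krt17, Ugt1a1, Gm42742, Gm9833 and the genes outside the set were chosen for their role or after their values were seen.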

Additional observations from a re-analysis of the deposited data

Results flagged for a closer look

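Of 12 set members with a mean over 0.1 CPM in C57BI/6 ACSS2i, 5 had 1 library far from the other 3. Chance flags about 1 in 20 groups, but these 12 genes were picked for a mean that a single high library can raise, so the count is not set against that share. Sln stood at 11.9 CPM, Csrp3 at 8.75 CPM and Igfn1 at 1.03 CPM in replicate 3. Krt17 stood at 0.541 CPM in replicate 2, and Exosc6 at 2.72 CPM in replicate 1.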

How the results depend on the processing

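The number of genes in the set followed the libraries: 41 by the median in place of the mean, 9 with 3 CPM required in every NGS vehicle library, and 23 to 99 with 1 library left out (23 without NGS vehicle replicate 1). Skin genes among them numbered 1, 0 and, with 1 library left out, 0 to 46. Calls over all genes in the ACSS2i libraries were 6014 and, with the replicate block, 3644, of which 2601 and 1361 were higher in NGS; with 1 library left out they were 4474 to 6481. The correlation of deviations between same-numbered libraries was 0.13, 0.0818 and -0.0925, so the numbers were not taken as pairs. Set members called higher in NGS were 14, and 13 with the block, 55 with no filter on low counts (33 of them skin genes, nearly all of whose counts lay in 1 library), 31 with all 14 libraries in 1 model, 24 with DESeq2 and 11 to 18 with 1 library left out. The model of all 14 libraries takes its filter and spread partly from the 7 libraries that fixed the choice. Its 31 is therefore no independent check. Genes over 0.2 CPM in C57BI/6 ACSS2i numbered 6. Genes even across the NGS libraries numbered 0 at a ratio of 0.5, and 4 to 9 with 1 library left out. Of 179 single-gene fold changes under alternatives, 177 kept direction and call. The exceptions were both of Sec14l4, at 3.45 with the replicate block and 3.07 without NGS ACSS2i replicate 1, with an adjusted p of up to 0.0974 over its alternatives. The causes of these shifts were not tested, beyond the fewer libraries or genes that a setting leaves. Depth limits the NGS groups most: no count there allows up to 0.289 CPM.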

Other observations

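The same 2 limits on level held 60 pseudogenes that are not protein-coding, 26 of them named for ribosomal proteins. Their sum was 754 to 1023 CPM in the 6 NGS libraries and 0.625 to 9.83 CPM in the 8 C57BI/6 libraries. Of the 60, 39 were at 1 CPM or more in all 6 NGS libraries, and 1 drew at least 80% of its NGS vehicle CPM from replicate 1, against 49 of the 69 protein-coding genes. Of the 60, 26 had no count in C57BI/6.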
